A study of Mus musculus with 6 samples.

Results

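The 10 genes described here encode the transcription factor p53, the MDM proteins that hold it in check, and 7 genes that p53 activates. They were chosen by symbol (Trp53, Mdm2, Mdm4, Ccng1, Sesn1, Sesn2, Zmat3, Phlda3, Plk2 and Trp53inp1) from the 55802 genes listed. Each symbol was found once and all 10 passed the filter on low values, which kept 12994 genes. The libraries came from primary neural stem cells of the subventricular zone of adult C57BL/6 mice, grown in Neurobasal-type medium with 2% B27 supplement. The control cells (3 libraries, wild-type genotype) were infected for 24 h with ADV-GFP, an adenovirus encoding green fluorescent protein, and the SETD4 OE cells (3 libraries, labelled SETD4 overexpression) with ADV-SETD4-GFP for the same time. The SETD4 protein carries a SET domain, the catalytic fold of most lysine methyltransferases, and the comparison asks how an excess of it alters expression in these cells. All cells had received an adenovirus, and no uninfected library was among those analysed. The labels do not say whether the 3 libraries of a group came from separate cultures or animals, so p-values measure the spread between these libraries, which may be technical.

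In unstressed cells p53 is made continuously and destroyed quickly, because MDM2 tags it with ubiquitin and MDM4 binds and masks its activation domain. Stress frees p53 from the MDM proteins, so that p53 activity is set mainly at the level of the protein rather than its messenger RNA. Active p53 switches on genes for cell cycle arrest, repair, metabolism and apoptosis, and also Mdm2 itself, which closes a feedback loop. In the adult brain p53 is known to restrain the self-renewal and proliferation of neural stem cells.

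Values were FPKM, reads per kilobase of gene length scaled to the size of the library, which allows levels of different genes to be compared. Reads recovered from the values summed, over the genes listed, to between 14924273 and 18078717 in each of the 6 libraries. The 10 genes had between 567 and 12990 of these reads in any library. Setd4 was at 0.952, 0.972 and 1.53 FPKM in control replicates 1, 2 and 3 and at 296, 346 and 333 FPKM in SETD4 OE, so each library matched its label. The 9 markers of neural stem cells and astroglia examined (Nes, Sox2, Sox9, Vim, Gfap, Slc1a3, Fabp7, Prom1 and Egfr) all passed the filter, and 6 rose and 3 fell. Among them Gfap rose from a mean of 321 to 1388 FPKM (log2 fold change 2.11, SE 0.07) and Nes fell from 117 to 42.7 FPKM (-1.42, SE 0.13), a pair chosen after the values were seen. All 8 microglial markers stayed below the filter, with summed levels of 0.826 to 1.22 FPKM in the controls and 1.74 to 2.12 FPKM in SETD4 OE. The 8 proliferation markers all fell, their sum going from 240 to 248 FPKM in the controls to 68.5 to 70.3 FPKM in SETD4 OE. Summed markers ran from 9.41 to 11.2 FPKM (control) and from 24.5 to 26.2 FPKM (SETD4 OE) for 5 oligodendrocyte genes, and the 4 of them that were tested rose. For 8 mural and fibroblast genes the sums were 34.9 to 39.1 and 24.9 to 29.0 FPKM, but 4 of the 5 tested rose (Col1a1, Col3a1, Rgs5 and Cspg4), and the lower sum came from Acta2, which fell from 30.9 to 11.6 FPKM. For 6 neuronal genes they were 8.79 to 9.61 and 2.89 to 3.52 FPKM. Of the 2 tested, Nefl fell from 7.65 to 0.577 FPKM and Gad1 rose from 0.628 to 1.65 FPKM. For 6 endothelial genes they were 3.87 to 4.25 and 1.22 to 1.48 FPKM, and Flt1, the 1 gene tested, fell from 3.43 to 0.618 FPKM. Their part in the results was not tested. Control replicate 1 stood apart from the other controls in its share of mitochondrially encoded reads, at 3.78% against 2.45% in each of the other two, and the SETD4 OE libraries held 3.52% to 3.73%.

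A gene is said to have risen or fallen when its difference between groups passed an adjusted p of 0.05 (limma on log2(FPKM + 1), two-sided, Benjamini-Hochberg over all 12994 genes tested). By that rule 2 of the 10 genes rose, Sesn1 and Trp53inp1, and 3 fell, Plk2, Ccng1 and Mdm2. The other 5 did not pass, Trp53 among them. Of all tested genes 60.0% were called, 26.0% higher and 33.9% lower, beside 50% of the members. The library values of the groups did not overlap for the 5 called members, 2 higher and 3 lower, whereas they did not overlap for 66.0% of tested genes, 29.1% higher and 36.9% lower. Neither share of the members stood above that of the transcriptome. The reads recovered from the values differed from the library size behind the authors' scaling by 0.634% to 2.75% in the controls and by -5.04% to -3.69% in SETD4 OE. With the authors' scaling 43.4% of called genes were higher. That share was 50.8% with equal library sums, 49.7% with median-of-ratios scaling, 49.7% with quantile normalization and 50.1% with limma-voom. With upper-quartile scaling it was 57.5%, and the median of all tested genes moved from -0.06 to 0.07 on the log2 scale. The members then split into 4 higher and 1 lower. Without control replicate 1 they split into 2 higher and 4 lower. The median log2 fold change of the 10 genes was -0.02, beside -0.06 for all tested genes.

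**Figure D1:**
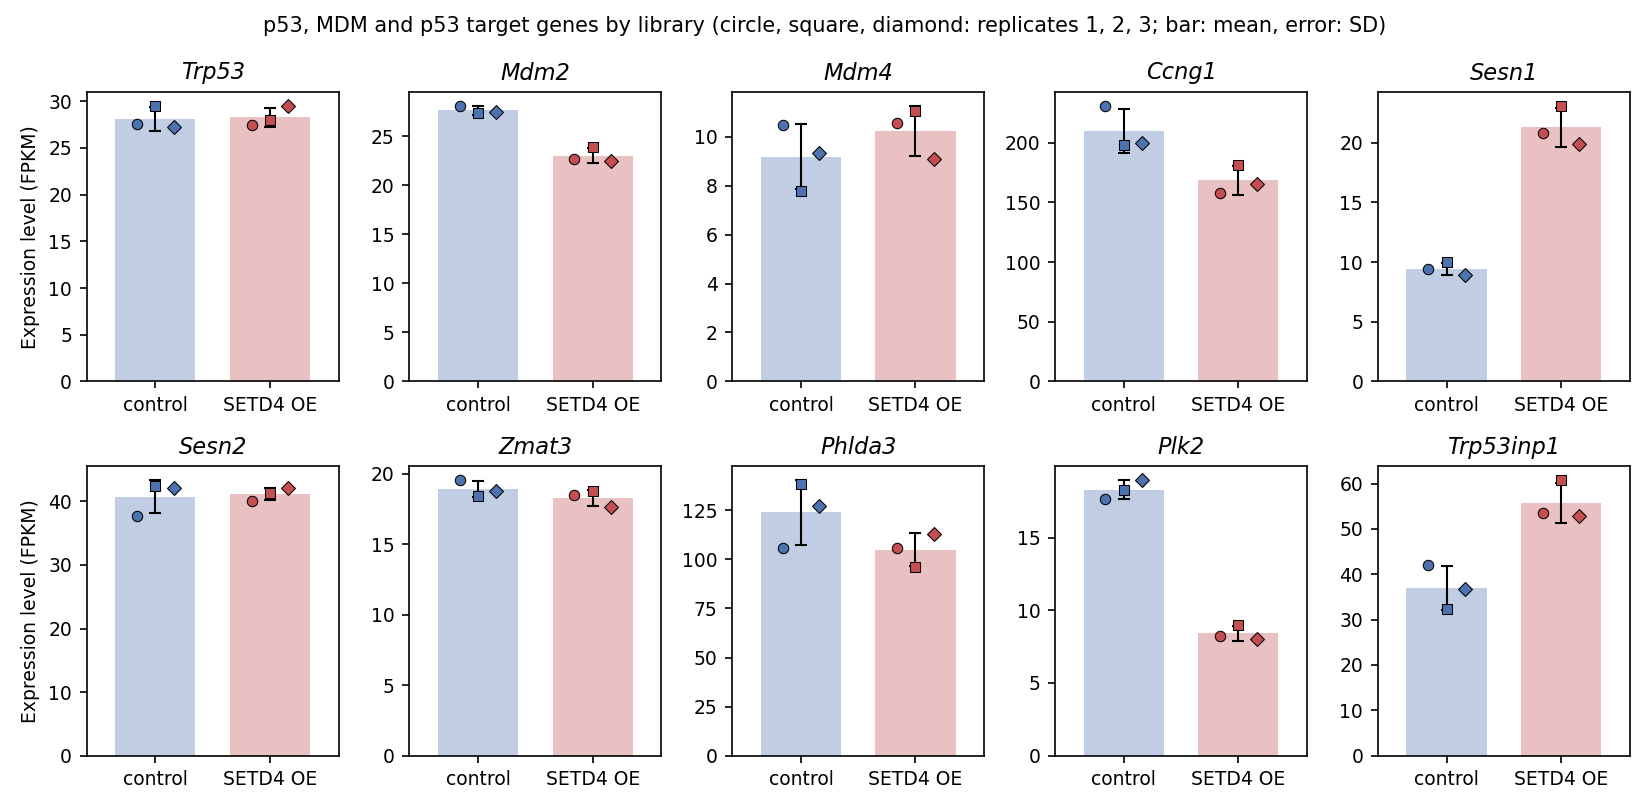
Expression level in FPKM (vertical axes, each from 0) of the 10 genes in the 3 control and 3 SETD4 OE libraries. Symbols are single libraries, bars are means and error bars are SD. Sesn1 and Trp53inp1 lie higher in every SETD4 OE library than in any control, Plk2, Ccng1 and Mdm2 lie lower, and the groups overlap for the other 5 genes.

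Trp53, which encodes p53 (ENSMUSG00000059552; mm39 chromosome 11, 69471185 to 69482699, plus strand), was at 27.6, 29.5 and 27.2 FPKM in control replicates 1, 2 and 3 and at 27.5, 27.9 and 29.4 FPKM in SETD4 OE replicates 1, 2 and 3. The groups overlapped, and the highest library of each group was at nearly the same level. The log2 fold change was 0.01 (SE 0.06, 95% interval -0.12 to 0.14, adjusted p = 0.887, limma). This interval leaves room for a small change of the messenger RNA in either direction, and the call depended on the scaling: with upper-quartile scaling the value was 0.16 (adjusted p = 0.0345) and with quantile normalization 0.18 (adjusted p = 0.0167). A processed pseudogene, Trp53-ps, was listed at a mean of 0.816 FPKM, and how reads shared with it were assigned is not given. RNA levels do not report on p53 protein, its modification or its activity.

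Mdm2, the ubiquitin ligase that degrades p53 and is itself a p53 target (ENSMUSG00000020184; mm39 chromosome 10, 117524780 to 117546663, minus strand), was at 28.1, 27.3 and 27.4 FPKM in the controls and at 22.7, 23.9 and 22.5 FPKM in SETD4 OE. All 3 SETD4 OE libraries lay below all 3 controls, and the libraries of each group stood close together. The mean fell from 27.6 ± 0.417 FPKM in the controls to 23.0 ± 0.769 FPKM (SD, n = 3 each), with a log2 fold change of -0.25 (SE 0.05, adjusted p = 0.00398, limma). The fall did not pass with upper-quartile scaling (-0.11, adjusted p = 0.148) or quantile normalization (-0.08, adjusted p = 0.305). Relative to the median of all tested genes the Mdm2 difference was -0.20 with the authors' scaling, -0.18 with upper-quartile scaling, -0.12 among genes averaging at least 5 FPKM and -0.08 with quantile normalization.

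Mdm4, the relative that masks p53 and pairs with MDM2 (ENSMUSG00000054387; mm39 chromosome 1, 132887222 to 132958299, minus strand), was at 10.5, 7.79 and 9.32 FPKM in the controls and at 10.6, 11.1 and 9.08 FPKM in SETD4 OE. The groups overlapped, and control replicate 2 was the lowest library. The log2 fold change was 0.15 (SE 0.11, 95% interval -0.12 to 0.41, adjusted p = 0.299, limma). The Mdm4 interval overlaps a tested pseudogene on the other strand, Gm29257, whose mean was 2.89 FPKM in the controls and 1.55 FPKM with SETD4, and the strand setting of the counting is not given. Within a library, Mdm2 was at 2.68, 3.51 and 2.94 times the level of Mdm4 in the controls and at 2.15, 2.16 and 2.47 times in SETD4 OE, and the groups did not overlap. The ratio of Mdm2 to Trp53 was 1.02, 0.927 and 1.01 in the controls and 0.825, 0.855 and 0.763 in SETD4 OE, again without overlap. An exact two-sided permutation test of the log2 ratio gave p = 0.10 for each of these, which is the smallest value that 3 libraries against 3 can give (adjusted p = 0.133 over the 4 ratios compared). The ratio of Mdm4 to Trp53 overlapped between the groups, at 0.329 ± 0.059 and 0.363 ± 0.0475 (SD, n = 3 each; exact permutation p = 0.50, adjusted p = 0.50).

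Ccng1, which encodes cyclin G1, an early described p53 target that recruits a phosphatase to MDM2, was the most abundant of the 10 genes (ENSMUSG00000020326; mm39 chromosome 11, 40639379 to 40646138, minus strand). It was at 231, 198 and 199.8 FPKM in the controls and at 158, 182 and 166 FPKM in SETD4 OE. All SETD4 OE libraries were below all controls, and SETD4 OE replicate 2 came nearest to the controls. The fall in the mean was from 209.7 ± 18.4 FPKM in the controls to 168 ± 12.2 FPKM (SE 0.09 on a log2 fold change of -0.31, adjusted p = 0.0170, limma). This call was lost in 7 of 15 alternatives. It did not pass without any filter on low values (adjusted p = 0.0535, limma), without SETD4 OE replicate 1 (adjusted p = 0.0647), without SETD4 OE replicate 3 (0.0518), with equal library sums (0.0509), with upper-quartile scaling (0.181) or with quantile normalization (0.577).

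Sestrins are stress-induced inhibitors of mTORC1 that also support antioxidant defence, and Sesn1 and Sesn2 are both p53 targets. Sesn1 (ENSMUSG00000038332; mm39 chromosome 10, 41685931 to 41784420, plus strand) was at 9.41, 9.96 and 8.95 FPKM in the controls and at 20.8, 23.1 and 19.9 FPKM in SETD4 OE. The groups stood far apart relative to the spread within them. The mean rose 2.25-fold, from 9.44 ± 0.506 FPKM in the controls to 21.3 ± 1.64 FPKM (SE 0.07 on a log2 fold change of 1.09, adjusted p = 2.13e-05, limma), and 96.5% of tested genes had a lower fold change. Sesn2 (ENSMUSG00000028893; mm39 chromosome 4, 132219343 to 132237812, minus strand), also a target of the stress factor ATF4, was at 37.7, 42.4 and 42.1 FPKM in the controls and at 40.1, 41.3 and 42.1 FPKM in SETD4 OE. Its groups overlapped throughout, with a log2 fold change of 0.02 (SE 0.06, 95% interval -0.13 to 0.16, adjusted p = 0.847, limma). With upper-quartile scaling (0.16, adjusted p = 0.0277) and quantile normalization (0.19, adjusted p = 0.0151) Sesn2 passed as higher. The level of Sesn1 relative to Sesn2 within a library was 0.249, 0.235 and 0.213 in the controls and 0.520, 0.560 and 0.473 in SETD4 OE. Its log2 difference was 1.16 (exact permutation p = 0.10, the smallest possible, adjusted p = 0.133 over the 4 ratios).

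Trp53inp1, whose product binds p53-modifying kinases and also acts in autophagy (ENSMUSG00000028211; mm39 chromosome 4, 11156431 to 11174379, plus strand), was at 42.0, 32.4 and 36.7 FPKM in the controls and at 53.5, 60.8 and 52.9 FPKM in SETD4 OE. The groups did not overlap, and control replicate 1, the highest control, came nearest to SETD4 OE. The mean rose 1.5-fold, from 37.0 ± 4.82 FPKM in the controls to 55.7 ± 4.40 FPKM (SE 0.10 on a log2 fold change of 0.58, adjusted p = 0.00236, limma).

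Plk2, which encodes a polo-like kinase acting in centriole duplication and synaptic plasticity (ENSMUSG00000021701; mm39 chromosome 13, 110531580 to 110537378, plus strand), was at 17.6, 18.3 and 19.0 FPKM in the controls and at 8.24, 8.98 and 8.01 FPKM in SETD4 OE. The libraries of each group stood close together and far from those of the other group. The mean fell 2.18-fold, from 18.3 ± 0.658 FPKM in the controls to 8.41 ± 0.511 FPKM (SE 0.06 on a log2 fold change of -1.04, adjusted p = 1.39e-05, limma), and 4.43% of tested genes had a lower fold change. Sesn1 and Plk2 were thus the members with the largest differences, in opposite directions. They were the 2 of the 10 past 1 on the log2 scale, which 9.06% of tested genes were with a call. With the 4 alternative scalings Plk2 was at -0.97 to -0.90, no longer past 1, and Sesn1 stayed past 1.

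Zmat3, an RNA-binding zinc finger protein that p53 uses to control splicing and transcript stability (ENSMUSG00000027663; mm39 chromosome 3, 32388941 to 32420163, minus strand), was at 19.6, 18.4 and 18.8 FPKM in the controls and at 18.5, 18.7 and 17.7 FPKM in SETD4 OE. The libraries of both groups lay close together, and the log2 fold change was -0.05 (SE 0.05, 95% interval -0.17 to 0.08, adjusted p = 0.482, limma). Phlda3, which competes with AKT for membrane lipids (ENSMUSG00000041801; mm39 chromosome 1, 135693857 to 135696874, plus strand), was at 106, 138 and 127 FPKM in the controls and at 106, 96.0 and 113 FPKM in SETD4 OE. Control replicate 1 lay among the SETD4 OE values and the other controls above them. The log2 fold change was -0.23 (SE 0.11, 95% interval -0.49 to 0.03, adjusted p = 0.110, limma), and without control replicate 1 it was -0.34 (adjusted p = 0.0136).

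**Figure D2:**
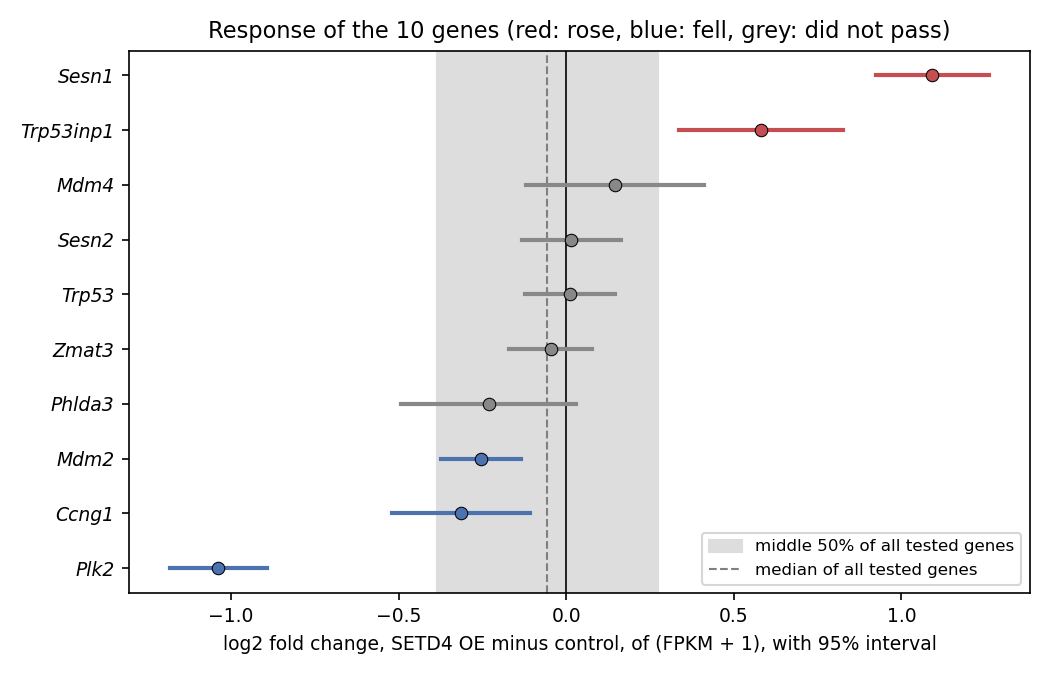
Log2 fold change of (FPKM + 1), SETD4 OE minus control (horizontal axis), with its 95% interval for each of the 10 genes. The grey band holds the middle 50% of all tested genes and the dashed line is their median, -0.06. Sesn1 at 1.09, Trp53inp1 at 0.58 and Plk2 at -1.04 lie outside the band, and the other 7 genes lie inside it.

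In the controls the levels ran, from high to low, Ccng1, Phlda3, Sesn2, Trp53inp1, Trp53, Mdm2, Zmat3, Plk2, Sesn1 and Mdm4. Neighbours whose library values overlapped there were Sesn2 and Trp53inp1, Trp53 and Mdm2, Zmat3 and Plk2, and Sesn1 and Mdm4. In SETD4 OE the order was Ccng1, Phlda3, Trp53inp1, Sesn2, Trp53, Mdm2, Sesn1, Zmat3, Mdm4 and Plk2, and Mdm2 and Sesn1 were the neighbours with overlapping values. Sesn1 went from 9th to 7th place and Plk2 from 8th to 10th. Ccng1 was more abundant than 98.7% of tested genes and Phlda3 than 97.4%, and the lowest-placed member by mean over the 6 libraries, Mdm4, was more abundant than 58.6%. In bulk RNA a lower level from fewer cells expressing a gene cannot be told apart from less RNA per cell, which holds for every value given here.

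The promoters of Ccng1 and Sesn1 are shown because they held the closest matches to the p53 consensus among members with a window. These p53 targets moved in opposite directions, and Plk2, which fell further than Ccng1, held no match. RefSeq promoter windows (GRCm38.p6, 250 bases before to 50 bases after a start) were found for 8 of the 10 genes, with Mdm4 and Sesn1 having a window for each of their 2 starts, and Zmat3 and Trp53inp1 had no entry. Each window was searched on both strands for the p53 response-element consensus, which is a pair of 10-base arms, here 0 to 13 bases apart and with at most 3 mismatches in all, none of them at the central C and G of an arm. The consensus reads the same on both strands. Capitals mark matching arms, and a single arm with no mismatch is also in capitals.
Ccng1 promoter, chr11:40755237-40755536, minus strand: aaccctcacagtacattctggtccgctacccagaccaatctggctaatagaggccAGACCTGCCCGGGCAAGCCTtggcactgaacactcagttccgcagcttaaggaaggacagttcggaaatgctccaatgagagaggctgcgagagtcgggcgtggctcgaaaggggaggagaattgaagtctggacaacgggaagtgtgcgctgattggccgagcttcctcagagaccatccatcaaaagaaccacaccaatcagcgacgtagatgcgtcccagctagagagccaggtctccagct
Sesn1 promoter of the downstream start, chr10:41887189-41887488, plus strand: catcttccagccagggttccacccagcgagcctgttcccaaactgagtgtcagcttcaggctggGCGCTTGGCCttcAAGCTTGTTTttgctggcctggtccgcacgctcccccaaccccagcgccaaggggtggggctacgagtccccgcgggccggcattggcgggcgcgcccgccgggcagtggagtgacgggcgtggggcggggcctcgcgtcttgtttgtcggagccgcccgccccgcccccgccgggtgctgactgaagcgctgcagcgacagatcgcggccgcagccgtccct
The pair with the fewest mismatches in each window with one is set beside that of Cdkn1a, the best known p53 target. Spacing was used only to choose between pairs with equal mismatches.
Ccng1: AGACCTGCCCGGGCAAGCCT
Sesn1: GCGCTTGGCCttcAAGCTTGTTT
Trp53: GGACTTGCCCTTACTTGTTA
Mdm4: AAGCAAGGTAtgctgTGGCAAGCCT
Cdkn1a: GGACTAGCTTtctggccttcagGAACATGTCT
The Ccng1 pair (chr11:40755462-40755481) had 1 mismatch and no spacer. Of the 32851 windows searched, 0.627% held a pair with at most 1 mismatch, at any spacing allowed. The Sesn1 pair (chr10:41887253-41887275) had 2 mismatches with a spacer of 3 bases, and 4.09% of windows held a pair with at most 2 mismatches, at any spacing allowed. The pairs of Trp53 (chr11:69580284-69580303) and of the downstream Mdm4 start (chr1:133025626-133025650) had 3 mismatches, as 15.6% of windows did or bettered. The upstream Cdkn1a window held a pair with no mismatch and a 12-base spacer (chr17:29090906-29090937), and 0.0731% of windows held a pair with no mismatch. The downstream arm of this Cdkn1a pair is followed directly by another arm, with which it makes a pair with 1 mismatch and no spacer. That adjoining pair is not printed, because the search put mismatches before spacing, so the printed Cdkn1a pair need not be the site that p53 uses. Mdm2 held 1 single arm with no mismatch, found in 8.36% of windows, and Sesn2, Phlda3 and Plk2 held neither. Cdkn1a, whose pair was the closest match of the genes compared, did not pass. Among the 8 members with a window Ccng1, with the closest match, fell and Sesn1, with the next closest, rose. Whether the matches bear on the direction of change was not tested. These matches describe letters in short windows and do not show binding, and p53 sites further away, such as those known in the first intron of Mdm2, lie outside the windows.

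Relatives of the members were compared next, since several have a sister gene that is controlled differently. Sesn3, a sestrin driven mainly by FOXO factors rather than p53, was at 16.2, 13.7 and 15.5 FPKM in the controls and at 42.8, 47.5 and 39.4 FPKM in SETD4 OE. Its log2 fold change of 1.45 (SE 0.09, adjusted p = 1.65e-05, limma) stood beside 1.09 for Sesn1 and 0.02 for Sesn2, and how far Sesn3 differed from either was not tested. Ccng2, a cyclin G also linked to FOXO factors, rose from 3.04 ± 0.387 to 8.37 ± 0.312 FPKM (log2 fold change 1.22), whereas its sister Ccng1 fell. Trp53inp2, an autophagy protein related to Trp53inp1, rose from 65.4 ± 4.10 to 98.7 ± 4.46 FPKM (log2 fold change 0.59), close to the 0.58 of Trp53inp1. The mitotic kinase gene Plk1 and the centriole duplication kinase gene Plk4 fell as Plk2 did, with log2 fold changes of -1.97 and -1.32. The p53 family genes Trp63 and Trp73 were below the filter, at 0.0222 and 0.121 FPKM in the controls and 0.0868 and 0.336 FPKM in SETD4 OE. In all, 3 of 9 tested relatives rose and 4 fell, with a median of 0.05. Their called share was 77.8%, beside 60.0% of all tested genes. The part of lower proliferation in the falls of Plk1 and Plk4 was not tested.

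**Figure D3:**
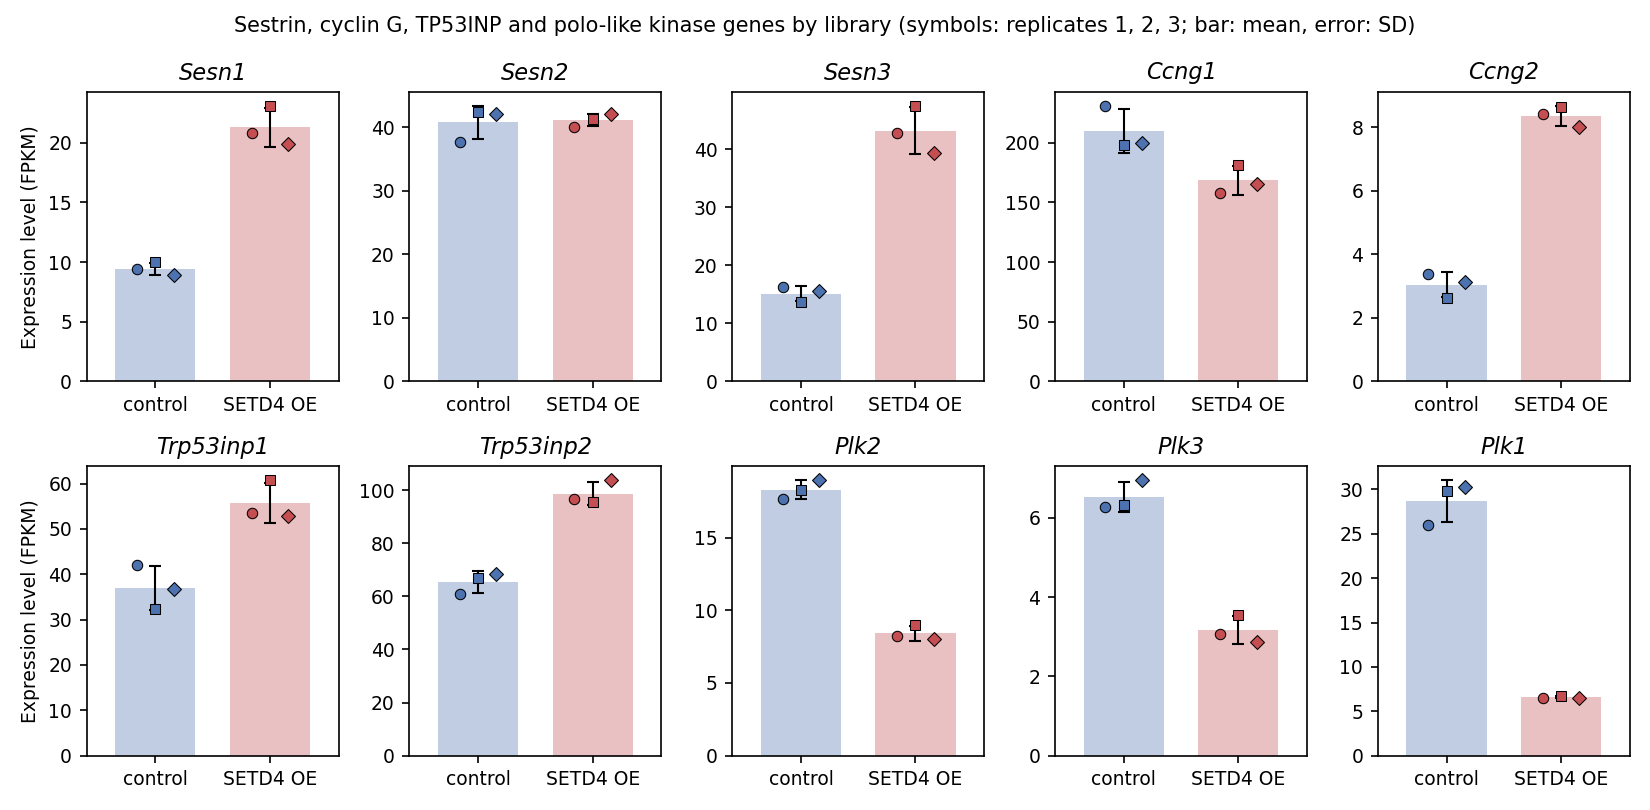
Expression level in FPKM (vertical axes, each from 0) of sestrin, cyclin G, TP53INP and polo-like kinase genes, with symbols for libraries, bars for means and error bars for SD (n = 3 per group). Sesn3 and Ccng2 are higher in every SETD4 OE library than in any control, as Sesn1 is, while Ccng1, Plk1, Plk2 and Plk3 are lower.

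Other p53 targets also went both ways. Of 32 listed, 30 were tested, 8 rose and 11 fell, and their median log2 fold change was -0.08 beside -0.06 for all tested genes. With upper-quartile scaling 10 were higher and 9 lower, and with quantile normalization 10 were higher and 10 lower. The number higher was 5 without a filter on low values. It was also 5 when control replicate 3 or either of SETD4 OE replicates 1 and 2 was left out. The called share, 63.3%, was near the 60.0% of all tested genes. Cdkn1a, the p21 inhibitor of cyclin-dependent kinases, was at 98.5, 125 and 111 FPKM in the controls and at 100.5, 97.9 and 105 FPKM in SETD4 OE. Its groups overlapped and it did not pass (log2 fold change -0.13, 95% interval -0.35 to 0.08, adjusted p = 0.239, limma), but without control replicate 1 the value was -0.22 (adjusted p = 0.0353).

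Among 6 targets of cell cycle control and arrest 1 rose and 4 fell, a called share of 83.3% beside 60.0% of all tested genes. Btg2, an antiproliferative gene, was at 17.8, 19.2 and 17.2 FPKM in the controls and at 41.3, 37.9 and 41.7 FPKM in SETD4 OE (log2 fold change 1.11, SE 0.07, adjusted p = 1.36e-05, limma). In contrast, the G2-phase gene Gtse1, whose product restrains p53, fell from 23.0 ± 1.49 to 8.65 ± 0.626 FPKM, and Ddias, which protects cells from DNA damage, fell from 8.24 ± 0.811 to 3.09 ± 0.340 FPKM. Mki67, a marker of cycling cells, was at 26.8 ± 2.24 FPKM (control) and 8.18 ± 0.620 FPKM (SETD4 OE), and the part of lower proliferation in these falls was not tested. Of 11 apoptosis targets 3 rose and 4 fell, a called share of 63.6%, near that of all tested genes. Bbc3, which encodes the BH3-only protein PUMA, rose from 10.3 ± 2.20 to 17.8 ± 2.81 FPKM (log2 fold change 0.74) and the death receptor gene Fas from 5.74 ± 0.745 to 8.91 ± 0.730 FPKM (0.56). The death receptor gene Tnfrsf10b fell from 7.74 ± 0.299 to 4.96 ± 0.301 FPKM (-0.55), and Aen, a p53-induced exonuclease, from 23.5 ± 2.39 to 16.6 ± 1.31 FPKM (-0.47).

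Of 6 targets in DNA repair and nucleotide supply 3 rose and 1 fell, a called share of 66.7% beside 60.0% of all tested genes. Ddb2, a sensor of ultraviolet damage best known as a p53 target in human cells, was at 1.00, 0.914 and 1.15 FPKM in the controls and at 2.94, 3.60 and 3.27 FPKM in SETD4 OE (log2 fold change 1.08, and 1.59 with a pseudocount of 0.1, which damps low genes less). Xpc, its partner in nucleotide excision repair, had a log2 fold change of 0.35. The translesion polymerase gene Polh fell from 5.30 ± 0.533 to 2.35 ± 0.281 FPKM. Of 4 tested metabolism and stress targets none rose and 2 (50%) fell. Tigar, which lowers glycolytic flux, fell from 6.22 ± 0.553 to 2.83 ± 0.0926 FPKM. The secreted stress factor gene Gdf15 had a log2 fold change of -0.37 (adjusted p = 0.0354, limma), which did not pass in 10 of 15 alternatives. Among the 3 feedback targets 1 (33.3%) passed, the phosphatase gene Ppm1d at 0.28 (adjusted p = 0.0401, limma). Its groups overlapped, and it did not pass in 5 of 15 alternatives.

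**Figure D4:**
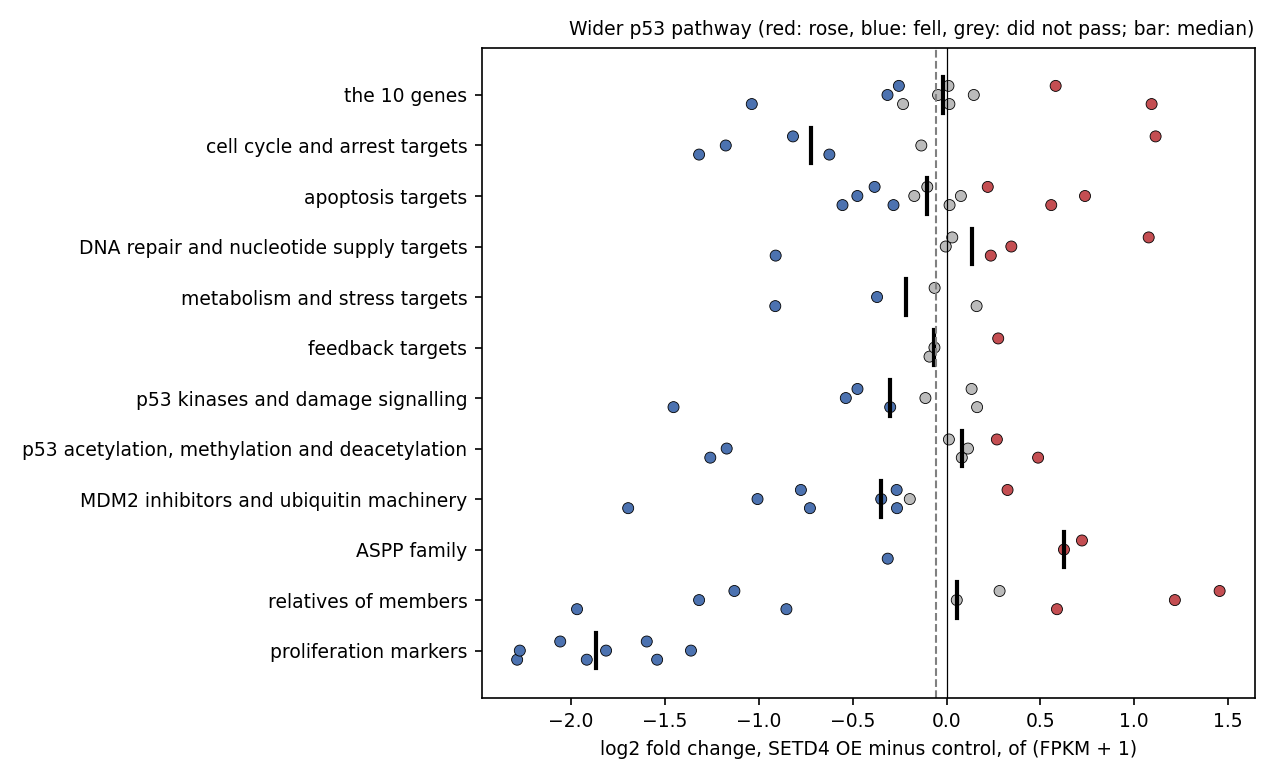
Log2 fold change of (FPKM + 1), SETD4 OE minus control (horizontal axis), of every tested gene in each p53 list and in the proliferation markers (rows). Points are genes, black bars are list medians and the dashed line is the median of all tested genes. The lists of targets hold genes on both sides of 0, and all 8 proliferation markers lie to the left of the members' lowest value, -1.04.

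Of 26 genes acting on p53 from upstream 5 rose and 14 fell, with a median of -0.26 (8 higher and 10 lower with upper-quartile scaling, 8 and 14 with limma-voom). The called share was 73.1%, beside 60.0% of all tested genes. Of 7 kinases and damage signalling genes none rose and 4 fell, among them the checkpoint kinase genes Chek1, from 3.69 ± 0.145 to 0.714 ± 0.0933 FPKM, and Chek2, from 4.62 ± 0.438 to 2.87 ± 0.1997 FPKM. Of 9 genes for MDM2 inhibitors or for ubiquitin machinery of MDM2 or p53, 7 fell and 1, the E3 ligase gene Trim24, rose (log2 fold change 0.32). Cdkn2a, at 31.1, 39.1 and 36.4 FPKM in the controls and 8.65, 10.9 and 11.3 FPKM in SETD4 OE, had the largest fall of the list (log2 fold change -1.70, SE 0.12, adjusted p = 2.86e-05, limma). Cdkn2a encodes both the MDM2 inhibitor ARF and the kinase inhibitor p16, which a value per gene does not separate. Usp10, a deubiquitinase that stabilises p53, fell from 12.9 ± 0.284 to 5.91 ± 0.362 FPKM.

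Among 7 enzymes that acetylate, methylate or deacetylate p53, 2 rose and 2 fell, a called share of 57.1% beside 60.0% of all tested genes. The methyltransferase genes Kmt5a and Smyd2, whose products methylate p53 and dampen it, fell by 1.26 and 1.17 on the log2 scale, while Setd7, whose product methylates p53 at another site and is reported to stabilise it, rose by 0.49. The deacetylase gene Sirt1 was at 0.27 (adjusted p = 0.0274, limma) and did not pass in 6 of 15 alternatives. In the ASPP family both genes that favour p53-driven apoptosis rose, Trp53bp2 from 8.32 ± 0.1799 to 14.4 ± 1.11 FPKM and Ppp1r13b from 2.18 ± 0.110 to 3.90 ± 0.0581 FPKM, and the inhibitory member Ppp1r13l fell from 3.14 ± 0.249 to 2.34 ± 0.242 FPKM (log2 fold change -0.31, adjusted p = 0.0163, limma). The fall of Ppp1r13l did not pass in 3 of 14 alternatives.

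The genes most like Mdm2 across the 6 libraries were Mrps9, Faf2 and Polr2b, and those most like Sesn1 were Vat1l, Bcas3 and Enpp5. Likeness was the root mean square difference between log2(FPKM + 1) values centred on each gene's mean, over the 7469 other protein-coding genes averaging 5 FPKM or more. It was 0.016 to 0.020 for the 3 genes nearest Mdm2 and 0.046 to 0.052 for the 3 nearest Sesn1. A difference of at most 0.1 from Mdm2 was shared by 1274 genes and from Sesn1 by 61, so profiles near that of Mdm2 were more common than profiles near that of Sesn1. This limit is wide beside the small fall of Mdm2, so the genes within it need not all have fallen.

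**Figure D5:**
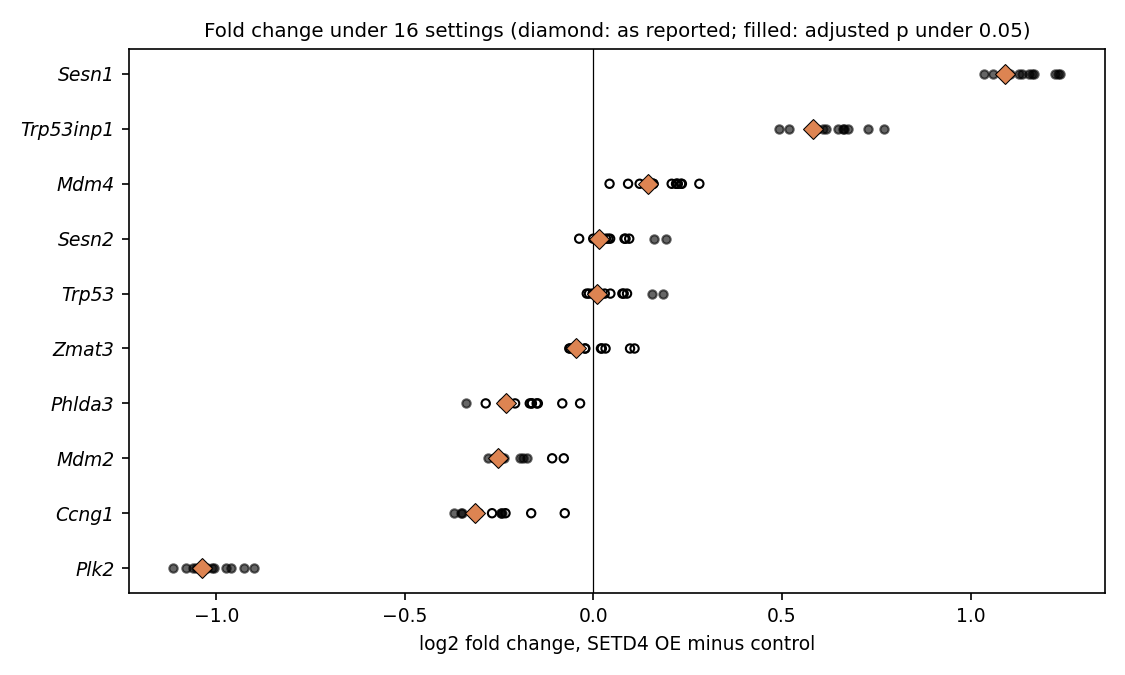
Log2 fold change, SETD4 OE minus control (horizontal axis), of the 10 genes under the reported setting (diamond) and 15 alternatives (circles, filled where the adjusted p was under 0.05). Sesn1, Trp53inp1 and Plk2 passed under all of them, and Zmat3 and Mdm4 under none.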

How the data were processed

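RNA-seq libraries, 3 control and 3 SETD4 OE, were used, grouped by sample title. The submitters' processing notes name HISAT2 2.0.5 and the build mm39. How reads were counted, and with which annotation and strand setting, is not given in the sources used here. Deposited values, as the authors made them, were taken as FPKM, 1 column per library with gene coordinates and length, and no header names the unit. FPKM times length was a whole multiple of 1 step per library for 100% of values (tolerance 0.05 reads), which gave the reads per gene.

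Genes averaging 1 FPKM or more (12994 of 55802) were tested on log2(FPKM + 1) by limma 3.58.1 (R 4.3.3), using a mean-variance trend without a replicate block. This scale understates the change of low genes. The fit was tested on simulated reads in which a small part of the genes was changed and the scaling was the same in both groups. That setting differs from these data, so the simulation does not vouch for the calls made here. Members, lists and tests were chosen with earlier results of these data known. Named genes were the 10 members, Setd4, Cdkn1a, Mki67, 5 relatives and up to 2 called genes per direction with the largest change from each other list. Alternatives were a pseudocount of 0.1, no filter or an average of 5 FPKM or more, a replicate block, 4 scalings, limma-voom on recovered reads, and leaving out each library. A marker gene of the stem cell list is not reported here. Libraries of a group differed by more than counting noise (chi-square per degree of freedom 3.68 to 14.8 within groups). Promoter windows came from RefSeq (GRCm38.p6). Figures were drawn with matplotlib 3.10.9.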

Additional observations from a re-analysis of the deposited data

How the results depend on the processing

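Of 150 alternative values for the 10 genes, 136 kept their direction and call or stayed without a call. Sesn1 ranged from 1.04 to 1.24, Plk2 from -1.11 to -0.90 and Trp53inp1 from 0.49 to 0.77 on the log2 scale, and each passed in all 15 alternatives. Under upper-quartile scaling, and likewise under quantile normalization, the members split into 4 higher and 1 lower, because Trp53 and Sesn2 gained a call and Mdm2 and Ccng1 lost theirs. For other p53 targets 5 were higher without a filter, where 30911 genes were tested, and 5 to 7 when a library was left out. The lowest count came without the third control library and without the first or the second SETD4 OE library. For p53 regulators 8 were higher with upper-quartile scaling and 8 with limma-voom. The causes were not tested. Leaving out a library gave 6683 to 7840 called genes in all.

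Same-numbered libraries did not deviate together (correlations of their deviations from the group means, across genes, of -0.07, -0.23 and 0.08), so the numbers were not taken as pairs. With the replicate block 6941 genes were called in all, and of the members 2 were higher and 2 lower, since Ccng1 no longer passed (adjusted p = 0.0573, limma). Depth did not limit the members, which had at least 567 reads in every library.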
